A study of Mus musculus with 2 samples.

Results

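The Janus kinases Jak1, Jak2, Jak3 and Tyk2 and the transcription factors Stat3, Stat4, Stat5a, Stat5b and Stat6 were followed through 2 maps of open chromatin from cultured mouse mast cells. All peaks whose nearest protein-coding gene, within 100 kb, was 1 of these 9 genes were taken. This gave 18 of 17170 peaks in the wild-type map and 22 of 19684 in the Dnmt3a knockout map, which together formed 26 of 23364 regions of overlapping peaks. The cells were bone marrow-derived mast cells (BMMC), granule-filled cells that bind IgE, differentiated from marrow in culture for 4 weeks with interleukin 3. One library came from wild-type mice and the other from DNMT3A-KO littermates, animals without the de novo DNA methyltransferase Dnmt3a. The labels describe females aged 3 weeks, the growth protocol 3 to 4 weeks, and over 95% of the cells carried Kit and the IgE receptor at their surface. No treatment was given to either culture. The sources used here do not say how the allele was made, which exons it removes or whether marrow was pooled. The method, ATAC-seq, uses the transposase Tn5 to cut and tag accessible DNA, so a peak is a short stretch where more fragments piled up than in the surrounding background. There was 1 library per genotype, so no difference below was set against a spread between animals and none was tested.

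Cytokine receptors of this class have no kinase of their own. They hold Janus kinases on their inner tails, and when a cytokine brings receptor chains together these kinases phosphorylate the receptor and the STAT proteins that dock there. Phosphorylated STAT proteins pair, enter the nucleus and bind DNA. In mast cells, interleukin 3 signals through Jak2 and the closely related Stat5a and Stat5b, which these cells need for survival, while interleukin 4 signals through Jak1, Jak3 and Stat6.

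The labelled cell type was checked on marker genes. Of 10 mast cell markers, the wild-type map held a region at 9 and the knockout map at 10. The counts were 3 and 3 of 8 for neutrophil, 2 and 2 of 6 for macrophage, 0 and 1 of 5 for B cell, 3 and 4 of 6 for T and NK cell and 3 and 2 of 4 for basophil markers, against 46.4% and 49.6% of all genes. The targeted gene, Dnmt3a, had 6 wild-type and 5 knockout peaks, in 4 regions of both libraries, 2 of the wild type alone and 1 of the knockout alone. The lists hold no total read count. The summit pileup is the number of fragments that overlap at a peak's highest point. As reads were single, a fragment here stands for 1 read as laid out by the peak caller, whose settings are not stated. The summit pileup had a median of 9 in both libraries and likewise of 9 among the JAK and STAT peaks of each library.

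Peaks at the start of transcription are the first result, and the sequences before those starts are shown here because 6 of the 9 genes had a peak there in at least 1 library. A start window ran from 250 bases before to 50 after a start given by RefSeq (GRCm38.p6, the build mm10 names), and the 9 genes had 12 such windows. Only the 250 bases before each start are printed, 5′ to 3′ along the gene. Capitals mark letters matching 1 of the searched motifs named after the sequences. For Stat5a the downstream of its 2 starts is shown. Both starts of Stat5b, which had no peak, are shown for comparison with Stat5a.
Jak1, chr4:101265224-101265473, minus strand: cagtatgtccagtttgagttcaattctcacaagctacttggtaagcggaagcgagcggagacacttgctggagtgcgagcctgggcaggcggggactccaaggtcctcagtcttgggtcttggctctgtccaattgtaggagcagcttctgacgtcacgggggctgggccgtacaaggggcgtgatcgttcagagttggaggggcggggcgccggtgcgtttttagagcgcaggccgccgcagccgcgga
Jak2, chr19:29251553-29251802, plus strand: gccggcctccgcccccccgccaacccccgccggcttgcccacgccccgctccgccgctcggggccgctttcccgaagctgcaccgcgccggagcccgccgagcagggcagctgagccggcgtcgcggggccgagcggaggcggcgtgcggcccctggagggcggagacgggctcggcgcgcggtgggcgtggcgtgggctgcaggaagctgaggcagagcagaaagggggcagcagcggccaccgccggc
Tyk2, chr9:21131276-21131525, minus strand: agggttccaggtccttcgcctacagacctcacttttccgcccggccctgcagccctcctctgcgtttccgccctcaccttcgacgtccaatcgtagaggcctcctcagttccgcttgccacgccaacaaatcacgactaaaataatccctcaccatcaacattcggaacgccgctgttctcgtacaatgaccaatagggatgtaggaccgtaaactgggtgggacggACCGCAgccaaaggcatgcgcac
Stat3, chr11:100939541-100939790, minus strand: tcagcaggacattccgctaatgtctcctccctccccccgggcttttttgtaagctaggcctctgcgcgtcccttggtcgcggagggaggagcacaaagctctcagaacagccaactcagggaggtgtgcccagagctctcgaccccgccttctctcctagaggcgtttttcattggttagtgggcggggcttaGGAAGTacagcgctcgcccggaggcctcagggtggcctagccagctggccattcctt
Stat5a downstream start, chr11:100860234-100860483, plus strand: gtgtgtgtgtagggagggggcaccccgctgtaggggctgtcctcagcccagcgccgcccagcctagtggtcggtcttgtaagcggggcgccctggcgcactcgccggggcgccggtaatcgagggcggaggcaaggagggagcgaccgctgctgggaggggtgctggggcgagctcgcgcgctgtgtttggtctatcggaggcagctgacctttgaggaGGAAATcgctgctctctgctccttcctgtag
Stat6, chr10:127642736-127642985, plus strand: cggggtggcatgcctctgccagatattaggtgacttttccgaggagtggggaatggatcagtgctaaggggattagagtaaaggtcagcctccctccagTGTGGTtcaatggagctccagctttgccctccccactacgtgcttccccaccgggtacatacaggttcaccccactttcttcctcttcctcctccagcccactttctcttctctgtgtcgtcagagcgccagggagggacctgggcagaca
Stat5b upstream start, chr11:100850582-100850831, minus strand: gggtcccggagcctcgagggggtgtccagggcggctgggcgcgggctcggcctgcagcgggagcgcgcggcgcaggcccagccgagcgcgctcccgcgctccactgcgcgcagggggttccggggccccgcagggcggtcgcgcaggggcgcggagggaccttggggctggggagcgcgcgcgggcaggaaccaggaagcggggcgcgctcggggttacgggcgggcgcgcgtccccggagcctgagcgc
Stat5b downstream start, chr11:100822571-100822820, minus strand: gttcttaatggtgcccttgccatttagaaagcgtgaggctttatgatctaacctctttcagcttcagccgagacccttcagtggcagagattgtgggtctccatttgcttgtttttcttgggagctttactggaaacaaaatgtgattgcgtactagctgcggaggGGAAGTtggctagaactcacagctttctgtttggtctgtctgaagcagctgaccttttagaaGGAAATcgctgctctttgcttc

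These sequences differ widely in their content of CpG, the base pair step that Dnmt3a methylates. Jak2 held 37 CpG in its 250 bases and the upstream start of Stat5b 40, at the percentiles 98 and 98.8 among 32619 RefSeq windows. Stat5a (downstream start) held 21, Jak1 and Tyk2 held 19 each, and Stat3 held 13. Stat6 held 6, equal to the median of all windows, and Jak3 held 8. Stat4, whose windows are not printed, held 1 at its upstream and 3 at its downstream start. A peak and a high CpG count therefore did not always coincide at these windows. The most CpG-rich of the 12 lies before the upstream start of Stat5b. That start was 9719 bp from the nearest wild-type and 9717 bp from the nearest knockout peak. The gene interval of Stat5b, however, extends past that start to base 100859004, an end that no window covers. The shared region at the downstream start of Stat5a lay 1294 bp from that end.

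The motifs were searched on both strands of the 250 bases. The STAT element GAS, TTCNNNGAA, was found in 0 of the 12 windows, against 7.05% of all windows. The ETS family was searched as GGAAGT and, in a second form, as GGAAAT, and 5 of 12 windows held either (32.0% of all), among them Stat3 at 57 to 52 bases and Stat5a at 31 to 26 bases before the start. The RUNX family, searched as TGTGGT with the variant form TGCGGT, matched in 2 of 12 (18.5% of all), in Stat6 and Tyk2. No window held the GATA letters AGATAA, nor their variant form TGATAA (16.6% of all held either), the AP-1 letters TGANTCA (6.78% of all) or the E-box CACGTG that MITF binds (6.06% of all). The letters of GAS and of ETS sites can share bases, which did not occur here as no GAS match was found. A match describes the sequence only. Stat5a and Stat5b are paralogs, and the downstream starts of both lie behind similar sequence: an alignment with gaps placed 89 bases of each side by side, of which 73 (82.0%) were identical, 100 to 12 bases before the Stat5a and 94 to 3 bases before the Stat5b start. The letters GGAAAT lie in that stretch in both genes. The Stat5a start had a peak in both libraries, and the nearest peaks to the Stat5b start were 1471 bp (wild type) and 1461 bp (knockout) away.

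Peaks covered the start windows of Jak1, Jak2, Tyk2, Stat3 and Stat5a in both libraries. That is 5 of 9 genes, where 27.8% of 17273 protein-coding genes with a window had a peak there in both lists. In the wild-type list alone the 5 genes compare with 31.2% of all genes, and in the knockout list 6 genes compare with 33.2%. Stat6 was the gene with a peak on its window in the knockout list only, a class that held 5.42% of all genes; 0 of the 9 genes were in the reverse class, which held 3.42%. Jak3, Stat4 and Stat5b had none on a start window in either list.

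**Figure D1:**
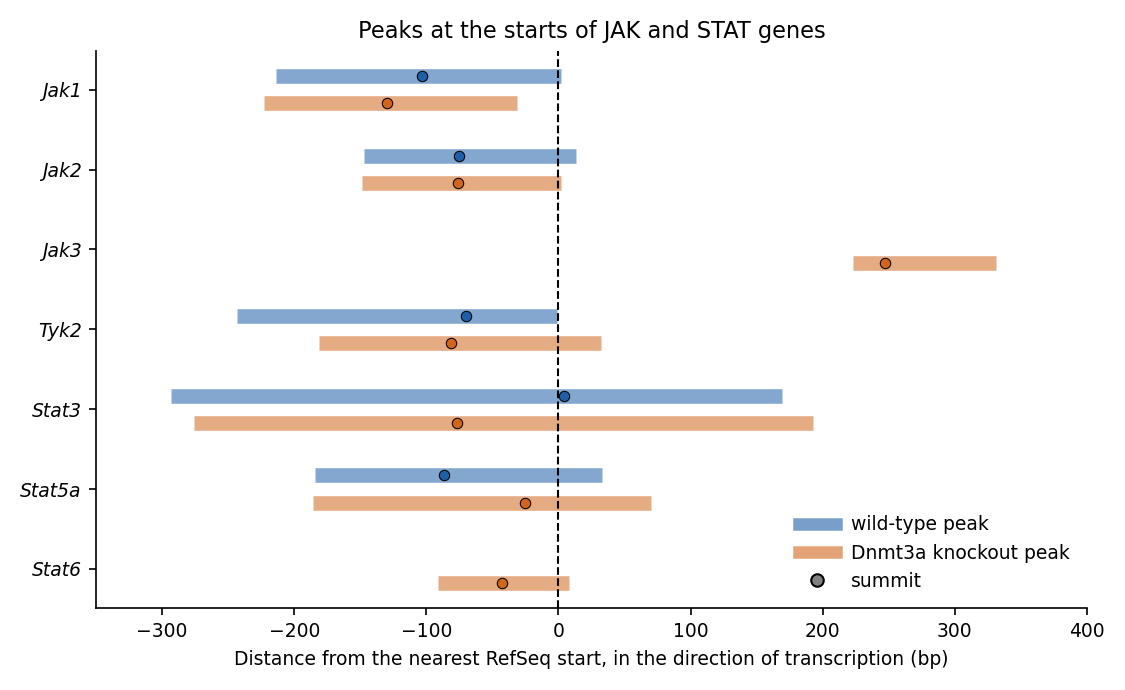
Peaks (bars) and summits (points) within 400 bp of a RefSeq start for 7 genes, by distance from the start in bp; blue is wild type and orange is knockout, 1 library each. In Jak1, Jak2, Tyk2, Stat3 and Stat5a both libraries have a peak before or over the start; Jak3 and Stat6 have a knockout peak only.

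Stat3, which carries interleukin 6 family signals, had the strongest and widest peak of the 9 genes. Its start region, chr11:100939347-100939833, had 29 overlapping fragments in wild-type cells and 28 in knockout cells. The peaks were 463 and 470 bp wide and shared 446 bp. They ranked at the percentiles 98.4 and 95.9 of −log10 q, the significance given by the authors' peak caller, each within its own list. The highest point lay 4 bp after the start in wild-type and 77 bp before it in knockout cells, a summit distance of 81 bp that was above the median of 29 bp over all 12871 shared regions.

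Jak1, the kinase shared by most of these receptors, had the next strongest start. The pileup was 21 fragments in both libraries at chr4:101265221-101265446, at the percentiles 96.4 and 95.7. The wild-type peak was 217 and the knockout peak 193 bp wide. Tyk2, a kinase of interferon and interleukin 12 receptors, had 14 wild-type and 13 knockout fragments at chr9:21131243-21131518, with widths of 243 and 214 bp and summits 11 bp apart. Jak2, the kinase of the interleukin 3 receptor, had 10 and 9 fragments at chr19:29251654-29251816. Its peaks were 161 and 152 bp wide, and their summits, 75 and 76 bp before the start, differed by 1 bp. At these starts both libraries gave nearly the same pileup and the same site.

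At the downstream start of Stat5a (chr11:100860298-100860554) wild-type cells had a pileup of 17 fragments and knockout cells of 11. The knockout peak was the wider, 257 against 218 bp, and covered the whole wild-type peak. Counting error alone gives exact Poisson 95% intervals of 9.90 to 27.2 and 5.49 to 19.7 fragments, which overlap.

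Stat6, the interleukin 4 and interleukin 13 factor, had a single region. It was a knockout peak of 100 bp, the smallest width in either list, at chr10:127642895-127642994, with 7 fragments and its summit 43 bp before the start. Jak3, which pairs with the common gamma chain of interleukin 4 receptors, likewise had 1 region, a knockout peak of 109 bp and 6 fragments at chr8:71676606-71676714. Its summit lay 247 bp after the start. In the wild-type list the nearest peak was 23733 bp from the Stat6 region and 10825 bp from the Jak3 region. Both knockout peaks ranked low in their list, at the percentiles 21.8 and 37.0. At a local background within 10% of theirs, the weakest peaks called anywhere in the wild-type list had 5 (for Stat6) and 3 (for Jak3) fragments, so pileups below those numbers were not listed at such a background.

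Away from the starts, the genes carried further regions inside, before or beyond them, as the map of peaks along each gene shows. Exons and introns are not resolved, since the gene table gives intervals only. Over the 9 genes, 21 of the 26 regions overlapped the gene, and the farthest lay 33173 bp away, well inside the limit of 100 kb. By the distance to either end of any protein-coding gene (1 kb), a gene end was near 5 of 14 shared regions, 2 of 8 that were knockout-only and 0 of 4 that were wild-type-only. Among all regions these shares were 43.8%, 24.7% and 27.5%.

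**Figure D2:**
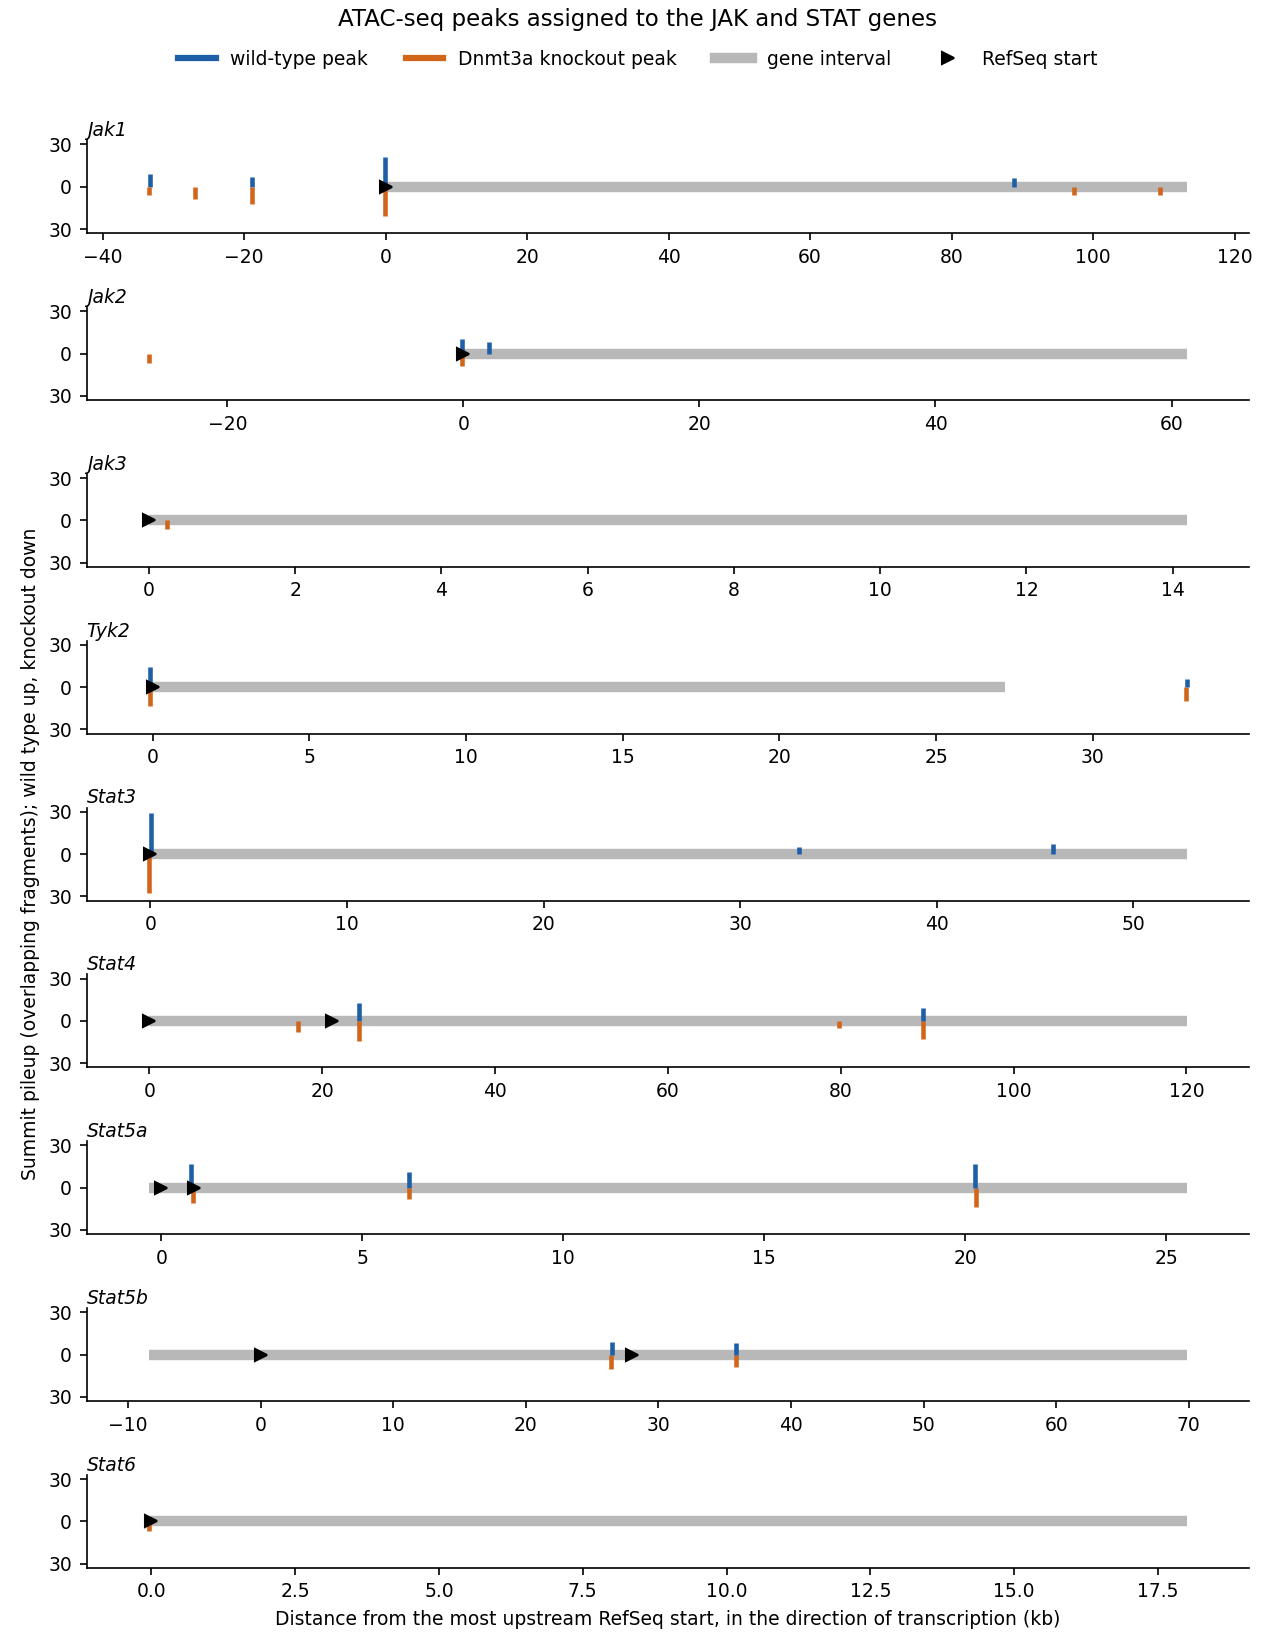
Peaks assigned to each of the 9 genes, by distance in kb from the most upstream RefSeq start in the direction of transcription; the height is the summit pileup in fragments, wild type upwards and knockout downwards, grey bars are gene intervals and arrowheads are starts. Stat5a and Stat5b have peaks of both libraries at each region, Jak3 and Stat6 have 1 knockout peak each, and the peaks inside Stat3 beyond its start are wild-type only.

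Jak1 had the most regions, 7, and 3 of them lay before the gene. The nearest, 18742 bp away at chr4:101284024-101284209, had 7 wild-type and 12 knockout fragments and widths of 149 and 150 bp. Next came a knockout-only region 26870 bp away (chr4:101292152-101292253) with 9 fragments, the highest pileup among the 12 unshared peaks. At 33173 bp (chr4:101298455-101298686) the wild-type peak had 9 fragments over 181 bp and the knockout peak 6 over 100 bp. Those peaks shared 49 bp and their summits lay 126 bp apart, the largest distance among the 14 shared regions. With a reciprocal overlap of 50% required, this region counted as 1 wild-type-only and 1 knockout-only region. The other 3 regions lay inside the gene, far from its start: a wild-type-only peak at chr4:101176255-101176354 and knockout-only peaks at chr4:101167893-101168034 and chr4:101155740-101155850, each with 6 fragments.

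Jak2 had 1 region on each side of its start that was not shared. The knockout-only region (chr19:29225143-29225244, 7 fragments) lay 26559 bp before the gene, and the wild-type-only region (chr19:29253941-29254040, 8 fragments) 2189 bp after the start by its summit. Tyk2 had a second shared region 5702 bp beyond its far end, at chr9:21098217-21098366. There the wild-type peak had 6 fragments over 101 bp, and the knockout peak, which covered it fully, 10 fragments over 150 bp.

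Stat3, Stat5a and Stat5b lie side by side on chromosome 11, from base 100780731 to base 100939594, and held 8 regions, of which 6 were shared. None of the 8 was knockout-only. Over all regions 55.1% were shared and 28% were knockout-only. The 8 regions are too few to tell their counts from those shares, and the difference was not tested. The 2 unshared regions were wild-type peaks inside Stat3, at chr11:100893557-100893676 with 7 fragments and at chr11:100906504-100906603 with 5. Stat5a had 2 shared regions inside the gene. At chr11:100865743-100865973 wild-type and knockout pileups were 11 and 8, and the widths 231 and 127 bp. At chr11:100879775-100880031 the pileups were 17 and 14, and the widths 219 and 257 bp. Thus each of the 3 Stat5a regions had the higher pileup in the wild-type library. Stat5b had 1 fragment more in the knockout in each of its 2 regions. The counts were 8 wild-type and 9 knockout fragments at chr11:100814633-100814811 and 9 and 10 at chr11:100824031-100824198. Over all shared regions the knockout median was likewise the higher, 11 against 10. Ranked among shared regions by −log10 q, both Stat5b regions stood lower in the knockout (-2.05 and -8.93 points, knockout minus wild type). By fold enrichment these differences were 0.68 and -6.11. In all 5 of these Stat5 regions the counting intervals of both libraries overlapped.

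Stat4, the interleukin 12 factor, is the longest of the genes at 120 kb and had 4 regions, all inside it and none on a start window. The strongest, chr1:52011372-52011522, lay 3194 bp after the downstream start by its wild-type summit. It had 13 wild-type and 14 knockout fragments, and its summits were 2 bp apart. At chr1:52076554-52076813 9 wild-type and 13 knockout fragments overlapped. The other regions were knockout-only, with 8 fragments at chr1:52004277-52004391 and 5 at chr1:52066860-52066959.

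Counted together, 14 of the 26 regions were shared (53.8%, exact binomial 95% interval 33.4 to 73.4), against 55.1% of all regions. Knockout-only regions numbered 8 (30.8%, interval 14.3 to 51.8), against 28% of all, and wild-type-only regions 4 (15.4%, interval 4.36 to 34.9), against 16.9%. The intervals cover counting error only. In each class the share at the JAK and STAT genes was near that over all regions. Counted by gene, wild-type peaks were assigned to 7 of 9 and knockout peaks to 9 of 9, against 46.4% and 49.6% of 21627 genes. A shared region was found at 7 of 9, against 40.5% of all. By assignment to the nearest gene, Tyk2, Stat5a and Stat5b had shared regions and no others, a class of 23.5% of all genes. By the same assignment, Jak3 and Stat6 had knockout-only regions and no others, a class of 7.26%. Knockout-only regions outnumbered wild-type-only ones at 4 of 9 genes (Jak1, Jak3, Stat4 and Stat6), against 17.3% of all genes. Wild-type-only regions were the more numerous at 1 of 9 (Stat3), against 9.4%. The shares of all genes include genes without any region. Among genes with a region, the median was 3 regions at the JAK and STAT genes and 1 over all genes. The comparisons by gene were not adjusted for this number.

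All 12 unshared peaks had between 5 and 9 fragments, and 10 of the 28 peaks in shared regions also had at most 9. In the whole maps, 85.6% of wild-type-only and 85.4% of knockout-only regions had at most 9. The 12 peaks had widths from 100 to 120 bp in the wild type and from 100 to 142 bp in the knockout. None ranked above the percentile 29.2 of the wild-type or 46.0 of the knockout list. For each of them, the weakest peak called in the other list at a local background within 10% of its own had 3 to 6 fragments, between 1 and 4 fewer than the peak itself. A peak missing from 1 list does not show that the site lacked fragments there, and accessibility below those pileups was not detectable.

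**Figure D3:**
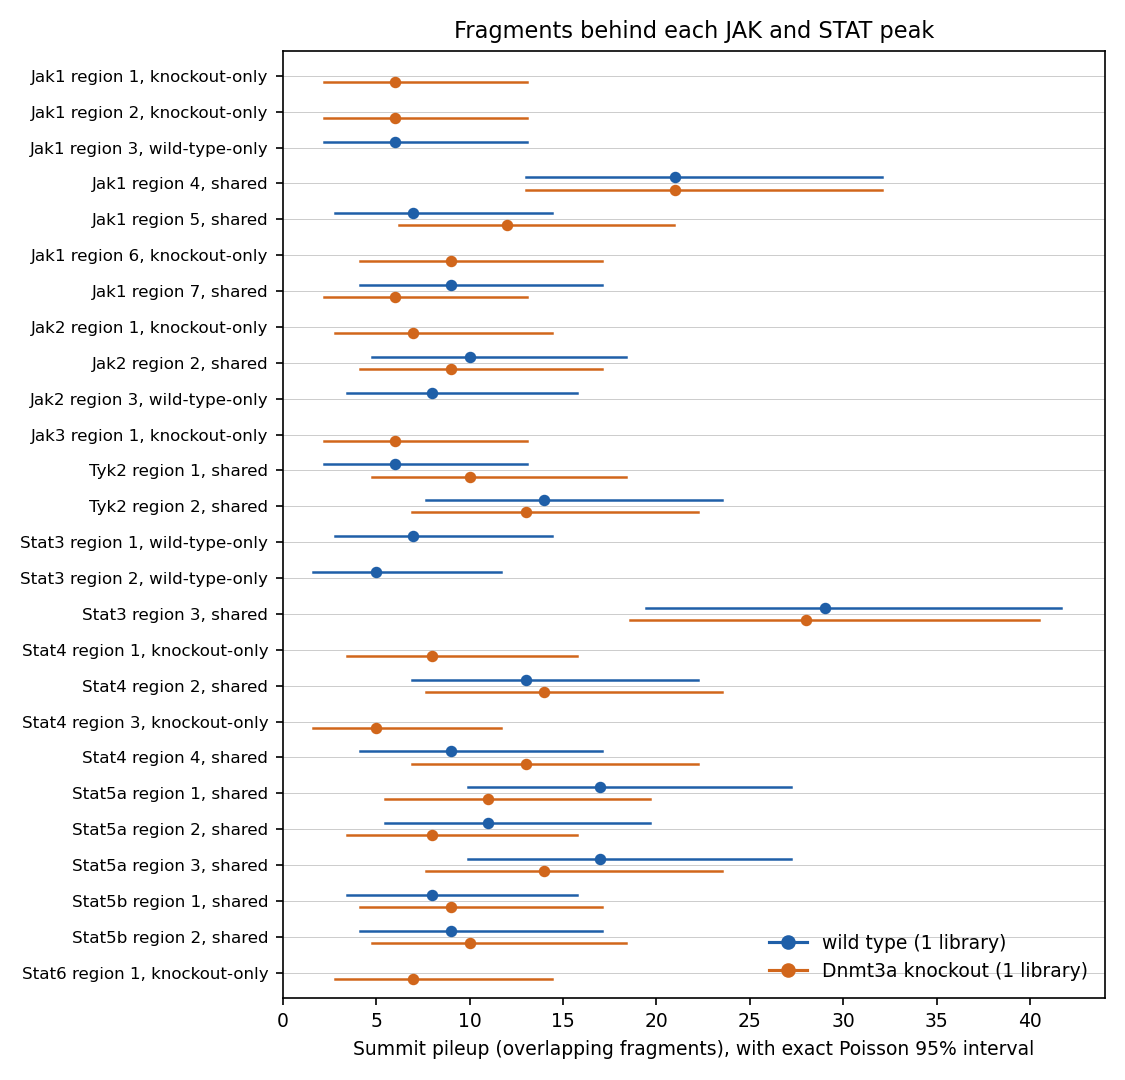
Summit pileup in overlapping fragments of each JAK and STAT peak, with its exact Poisson 95% interval, for the 26 regions; blue is wild type and orange is knockout, 1 library each. All 12 peaks found in 1 library lie between 5 and 9 fragments, and in all 14 shared regions the intervals of both libraries overlap.

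In shared regions the wild-type pileup ran from 6 to 29 fragments (median 10.5) and the knockout pileup from 6 to 28 (median 11.5). Over all shared regions the medians were 10 and 11. The counting intervals of the libraries overlapped at 14 of 14 regions. The share over all shared regions was not computed. At such pileups the intervals are wide, so an overlap does not show that the pileups were equal. Peak width did not lean to either genotype: 7 of the 14 shared regions were wider in knockout and 7 in wild-type cells. Among 12299 shared regions with 1 peak in each list, 56.7% were wider in the knockout and 40.7% in the wild type. The median difference, knockout minus wild type, was -4 bp at the JAK and STAT genes and 9 bp over all shared regions. The largest differences were those of the Stat5a region at chr11:100865743-100865973 and the farthest Jak1 region, with -104 bp (127 against 231) and -81 bp (100 against 181), and that of the far Tyk2 region, with 49 bp. Summits lay a median of 29 bp apart, the same as over all shared regions, and within 50 bp in 11 of 14, against 73.6% of all.

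**Figure D4:**
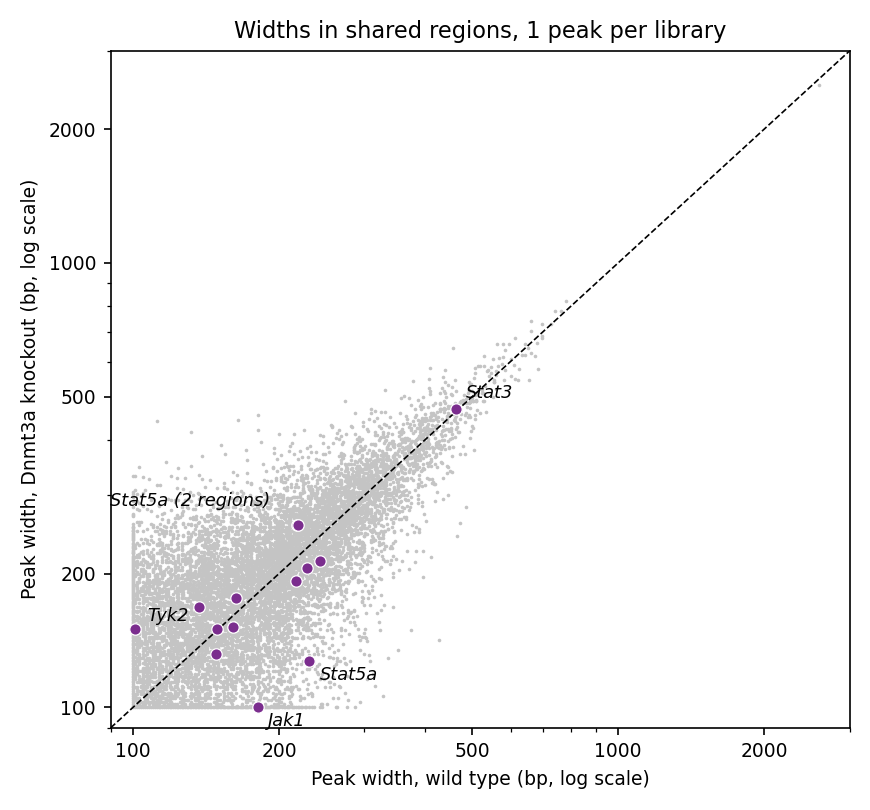
Peak width in bp in the wild-type (x) and knockout (y) library, on log scales, for shared regions with 1 peak in each list; grey points are all such regions, purple points the 14 JAK and STAT regions, and the dashed line marks equal width. The purple points fall on both sides of the line, 7 above and 7 below, with a Stat5a and a Jak1 region farthest below it.

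Because both libraries have a value in each shared region, the 12871 shared regions could be ranked by −log10 q within each library and the ranks set side by side. The start of Stat3 stood at the percentile 97.9 of the wild-type and 93.7 of the knockout ranking, and that of Jak1 at 95.2 and 93.4. The Stat5a start stood at 86.9 and 52.9 and the Stat5a region at chr11:100865743-100865973 at 61.2 and 27.0. The farthest Jak1 region ranked at 48.2 with wild-type and at 6.01 with knockout values. Knockout ranks at least 20 points above the wild-type ranks were found at the Jak1 region 18742 bp before the gene (40.2 and 69.0), the far Tyk2 region (15.3 and 46.0) and the second shared Stat4 region (49.6 and 71.5). So 3 of 14 regions stood at least 20 points higher in the knockout and 3 in the wild type, where 18.2% and 18% of all shared regions did. Differences of this size were thus common over the whole maps, and in these 6 regions the pileups of both libraries were 3 to 6 fragments apart. By direction alone, 3 regions ranked higher in the knockout and 11 in the wild type, against 49.5% and 50.5% of all shared regions. Ranked by fold enrichment instead, 4 stood higher in the knockout and 10 in the wild type, with the region of Stat5b at chr11:100814633-100814811 on the other side (-2.05 points by −log10 q and 0.68 by fold, knockout minus wild type).

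**Figure D5:**
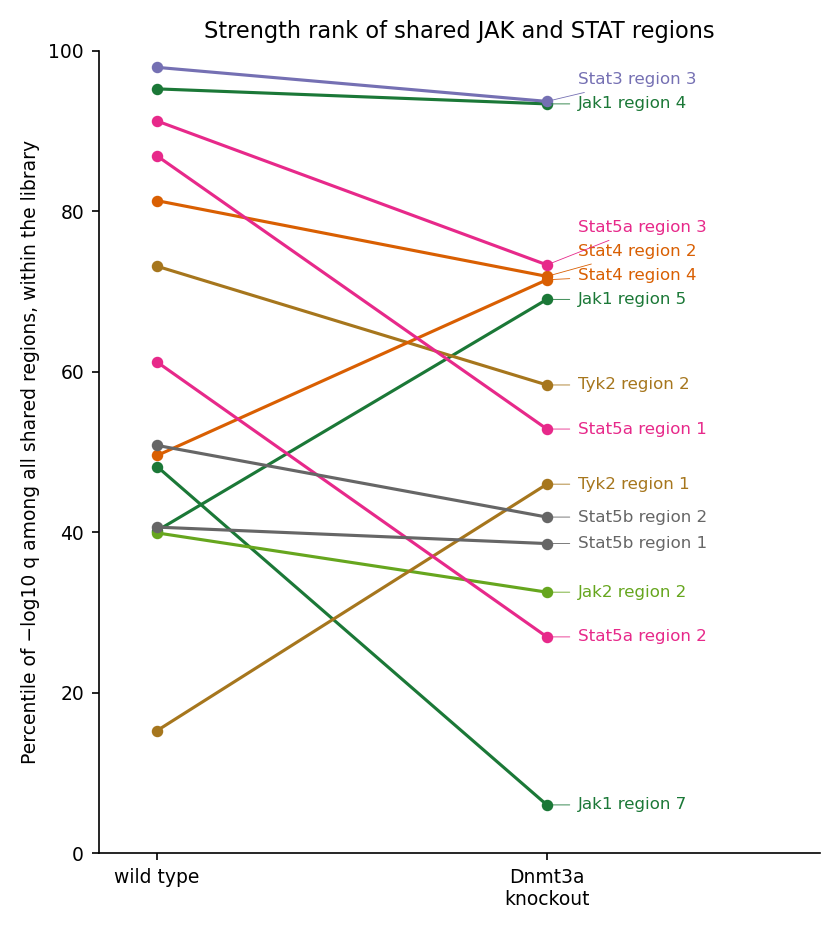
Percentile of −log10 q among all 12871 shared regions within the wild-type library (left) and the knockout library (right), for the 14 shared JAK and STAT regions; each line is 1 region, numbered along its chromosome within the gene. The starts of Stat3 (region 3) and Jak1 (region 4) stay above 90, while 2 Stat5a regions and Jak1 region 7 lie at least 20 points lower in the knockout, and Jak1 region 5, Tyk2 region 1 and Stat4 region 4 at least 20 points higher.

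Around the kinases and STAT factors, 72 other genes of the pathway were counted by the same rule. They had 98 regions in both libraries, 62 in the knockout alone and 32 in the wild type alone, so that 51.0% were shared and 32.3% knockout-only, against 55.1% and 28% of all regions. With equal numbers of peaks in both lists, the 62 against 32 unshared regions became 42 against 36. Shares over all regions at equal list length were not computed, here or for the single lists below. Receptor genes of the interleukin 3, GM-CSF and related group, in which Kit was counted, all had regions in both lists. These were 6 of 6 genes, against 46.4% (wild type) and 49.6% (knockout) of all genes. The 6 genes had 13 regions in both libraries, 4 of them at Kit, 7 in the knockout alone and 5 in the wild type alone. Csf2rb2, a beta chain of the mouse interleukin 3 receptor, had 2 in the knockout and 1 in the wild type alone. Csf2ra had 1 and 2, all over 10 kb from the gene, and Kit, the stem cell factor receptor gene, 1 and 0. Genes for receptors of the gamma chain and type 2 group had 13, 5 and 3 such regions, with 2 in the wild type alone and 0 in the knockout alone at Il21r and 1 in the knockout alone at both Crlf2 and Il2ra. In the gp130 and hematopoietic group 3 of 11 genes held a wild-type region, and 5 a knockout region, against 46.4% and 49.6% of all genes. There Csf3r had 1 wild-type-only region, and Ghr and Il6ra 1 knockout-only region each. Interferon, interleukin 10 and interleukin 12 receptor genes had 7 unshared regions of each kind. Of these, Ifnar1 had 2 knockout-only and 0 wild-type-only, Ifngr1 2 and 1, and Il10ra 1 and 2. The 2 knockout-only regions of Ifngr1 lay over 10 kb from the gene. Knockout-only regions made up 28% (interleukin 3), 23.8% (gamma chain), 50% (gp130, of 8 regions) and 28% (interferon) of these 4 receptor groups. Over all regions the share was 28%. With equal numbers of peaks, the knockout-only and wild-type-only counts became 5 and 5, 2 and 3, 3 and 2, and 5 and 7, in the same order.

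Over the 19 negative regulators of the pathway, 28 regions were shared, 20 were found in the knockout and 9 in the wild type alone. Socs3, which blocks receptor signalling to Stat3, had 3 regions in the knockout alone, of which 1 overlapped the gene and 1 lay over 10 kb off, and 0 in the wild type alone. The phosphatase genes Ptpn1 and Ptpn2 each had 3 in the knockout and 1 in the wild type alone, and 1 (Ptpn1) and 2 (Ptpn2) of those 3 overlapped the gene. Of the regions of the negative regulators 35.1% were knockout-only, against 28% of all, and with equal numbers of peaks the 20 against 9 became 14 against 13. Commonly used target genes held 31 shared regions over 17 genes, with 19 in the knockout alone (33.9%) and 6 in the wild type alone. With equal numbers of peaks these became 13 and 6, with no share over all regions at that setting to compare. Bcl2l1, the survival gene that Stat5 proteins activate, had 3 knockout-only regions, all overlapping the gene, beside 3 shared ones. Myc had 4, of which 1 overlapped the gene and 3 lay over 10 kb off, and Ccnd3 had 2, both overlapping it, with 0 wild-type-only at either. Of the 72 genes, 30 had more knockout-only and 14 more wild-type-only regions, and in the other 28 the numbers were equal or both 0. Over all genes, including those without any region, these shares were 17.3% and 9.4%, with no adjustment for the number of regions per gene.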

How the data were processed

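Each sample was 1 ATAC-seq library. Per the submitters' processing notes, the tools were Trimmomatic, Bowtie2 and MACS2 and the build mm10 (GRCm38); versions and parameters, and whether reads were shifted to the Tn5 cut, are not stated there, and a shift would move peak edges by a few bases. Per the labels' protocols, reads were single and 50 bases long, at a stated depth of 10 M reads. The authors deposited 1 peak list per library, called separately, with a score (10 times the −log10 q-value), a fold enrichment, a −log10 p-value and a −log10 q-value per peak. These authors' values ranked peaks within a library only. The summit pileup and the local background were solved from the deposited fold and −log10 p as (pileup + 1)/(background + 1) and a Poisson tail (tolerance 0.001), which gave a whole number for 100% of peaks.

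Peaks that shared at least 1 bp were merged into regions, and each region went to the nearest protein-coding gene interval of a RefSeq table (GRCm38.p6; 21627 genes on chromosomes 1 to 19 and X). No JAK or STAT region tied between genes. All 9 genes matched the table of start windows, whose opposite-strand windows agreed in 1911 of 1911 overlaps. Pathway genes are named as up to 3 per list that differ most in their counts of regions found in 1 library alone, knockout minus wild type, and where genes tie the one with more regions is named. The genes, lists and rules were chosen with earlier results of these data known. Python 3.11.15, pandas 2.3.3, NumPy 2.4.6, SciPy 1.17.1 and Matplotlib 3.10.9 were used, and the steps were tested on simulated data. Intervals are exact binomial for shares and exact Poisson for pileups, at 95%. The settings varied were the limit on −log10 q (5), the list length (equal numbers), the overlap (50% of both peaks, or summits within 200 bp), merging within 250 bp, gene bodies with 10 kb, the nearest gene boundary, other gene ends, and fold in place of −log10 q.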

Additional observations from a re-analysis of the deposited data

How the results depend on the processing

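No paired analysis was possible because there was a single library of either genotype. Over 17 results and 12 settings, 70 of 71 recomputed values stayed within 1.5 times the reported count or within its exact binomial interval. The exception was the number of wild-type-only regions at gene ends, 0 with ends of 1 kb and 1 with ends of 2.5 kb, where the Jak2 region is included by the wider limit. These limits are wide: a change from 62 to 42 knockout-only pathway regions with equal numbers of peaks counted as unchanged. Some values could not move. The −log10 q limit of 5 removed no JAK or STAT peak, as their lowest value was 5.12. All 14 shared regions already had 1 peak in each list. Regions of both libraries, of the knockout alone and of the wild type alone numbered 14, 7 and 4 with equal numbers of peaks, 13, 9 and 5 with a reciprocal overlap of 50%, 13, 9 and 6 over gene bodies with 10 kb and 14, 6 and 3 by the nearest gene boundary. At Jak1 these counts went from 3, 3 and 1 to 1, 2 and 1 over gene bodies with 10 kb and to 3, 1 and 0 by the nearest gene boundary. Over gene bodies with 10 kb, Stat6 had 3 knockout-only regions and 1 wild-type-only region, and Jak3 had 2 knockout-only regions. Stat5a and Stat5b each had 1 wild-type-only region there beside their shared ones. The single class of region at Stat6, Stat5a and Stat5b thus depended on how regions were assigned to genes. Ranking shared regions by fold, chosen after the data were seen, again placed 3 at least 20 points higher in each library. The unshared peaks rest on 5 to 9 fragments, 1 to 4 more than the weakest peak called in the other list at a like background. The part of sequencing depth in them was not tested.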

Other observations

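The pattern of regions at Jak1, with 3 shared, 3 knockout-only and 1 wild-type-only, was found at 17 other genes of 21627. The pattern of Stat5b and Tyk2, 2 shared regions and no others, was found at 825 genes other than the gene itself, and that of Jak3 and Stat6, 1 knockout-only region and no others, at 1336. By distance to the gene interval, 0 regions within 100 kb of Jak1 were assigned to another gene, and the closest such region was 174864 bp away. By distance to the nearest gene boundary, 3 of the 7 Jak1 regions lay nearer to another gene, and 0 regions of the other 8 genes did. At those 8 genes between 4 and 9 regions within 100 kb were assigned to another gene by interval.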
